A study of Homo sapiens with 12 samples.

Results

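The surface receptor of a T cell is built from an alpha and a beta chain that bind antigen and from the CD3 chains that carry the signal inside. The 8 genes described here encode its constant and signalling parts: TRAC, TRBC1 and TRBC2 for the constant regions of the alpha and beta chains, CD3D, CD3E, CD3G and CD247 for the delta, epsilon, gamma and zeta signalling chains, and TRAT1 for the TCR-interacting adaptor TRIM. They were taken by symbol and role, with earlier results of these data known. All 8 were listed in both deposited tables of TPM, an abundance corrected for transcript length and library total. The tables held 55514 and 44389 genes, 43805 of them in both.

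RNA sequencing had been done on 12 libraries of Jurkat, a human leukaemic T cell line. The first table held 3 libraries labelled as doxycycline-induced ZNF683 and 3 labelled Mock. The second held 3 libraries of a line titled with Hobit, the protein of ZNF683, and labelled Dox+, and 3 labelled Dox-. The protocol text, shared by all 12 libraries, names doxycycline at 1 ug/uL, present or absent, and does not say whether the Mock cells were given it. It names neither the promoter nor the number of clones. Nothing says that the libraries of a group are separate cultures, so their spread, and any p-value built on it, may be technical. ZNF683 itself was at 1.17, 1.76 and 1.04 TPM in the ZNF683 libraries, against 0.715, 1.59 and 0.681 TPM in the Mock libraries, and these ranges overlapped. It was at 0.453, 0.774 and 0.571 TPM in Dox+, against 0.115, 0.239 and 0.451 TPM in Dox-, without overlap.

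As background, the alpha and beta chains are made from genes that a developing T cell assembles from variable, joining and constant segments. They reach the cell surface only when joined with CD3 delta, epsilon and gamma and with the zeta homodimer, and a cell line that lacks any of these chains shows little receptor. The CD3 and zeta tails carry activation motifs, pairs of tyrosines that LCK phosphorylates and that ZAP70 then binds. The receptor complex of Jurkat has long been used to study these steps, and Hobit is a zinc finger repressor related to Blimp-1.

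The activation motifs are shown because they are what the 4 signalling chains have in common. These are coding strands from GENCODE v29 transcripts on GRCh38, 45 bases each, with the codons of the 2 tyrosines in capitals. A search of the coding sequences for this spacing of codons found 1 motif each in CD3D, CD3E and CD3G, 3 in CD247 and 0 in TRAT1, and for CD247 the first is given.

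CD3D: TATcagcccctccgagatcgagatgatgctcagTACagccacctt
CD3E: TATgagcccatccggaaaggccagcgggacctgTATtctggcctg
CD3G: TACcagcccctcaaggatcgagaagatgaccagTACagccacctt
CD247: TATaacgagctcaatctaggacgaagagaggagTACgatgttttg

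The pair of beta constant genes is shown because their likeness limits every value given for them. The annotated coding sequences of TRBC1 (530 bases) and TRBC2 (536 bases) were 95.5% identical, with 18 mismatches and 6 gap columns. Of all 31-base words of the coding sequences, 51% of those of TRBC1 and 50.4% of those of TRBC2 occurred in both. How reads from the shared stretches were divided between both genes is not recorded in a TPM value, so the split is uncertain. Bases 390 to 479 of both coding sequences hold 7 differences, in capitals.

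TRBC1: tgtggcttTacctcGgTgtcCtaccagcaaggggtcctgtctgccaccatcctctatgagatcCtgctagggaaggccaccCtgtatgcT
TRBC2: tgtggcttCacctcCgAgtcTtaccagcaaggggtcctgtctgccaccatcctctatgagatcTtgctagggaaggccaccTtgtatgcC

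In GENCODE v29 on GRCh38, CD3E lies on chromosome 11 at 118304545-118316175 on the plus strand, CD3D at 118338954-118342744 on the minus strand and CD3G at 118344344-118355161 on the plus strand. CD3D and CD3G are thus divergent neighbours, with 1599 bases between them, and 22778 bases separate CD3E from CD3D. TRBC1 and TRBC2 lie on chromosome 7 at 142791694-142793368 and 142801041-142802748, 7672 bases apart. TRAC is on chromosome 14 at 22547506-22552154, CD247 on chromosome 1 at 167430640-167518610 on the minus strand and TRAT1 on chromosome 3 at 108822698-108855005.

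All 8 genes were at or above the 94.8th percentile of the genes listed in their table, and kept nearly the same order of level, per length in TPM, in both tables. TRBC1 was the highest, with a mean over 6 libraries of 2544 TPM in the ZNF683 and Mock table and 1652 TPM in the doxycycline table. CD3D followed with means of 1125 and 930 TPM in those tables, then CD3G (737 and 442 TPM), CD3E (488 and 346 TPM), TRAC (378 and 220.1 TPM) and TRBC2 (348 and 204 TPM). CD247 (113 and 71.9 TPM) and TRAT1 (88.4 and 67.7 TPM) were the lowest. TRBC1 exceeded CD3D, and CD3D exceeded CD3G, in 6 of 6 libraries of each table. TRAC and TRBC2 were not separated, TRAC being above TRBC2 in 4 of 6 libraries of each table, and CD247 exceeded TRAT1 in 6 of 6 libraries of the first table and 4 of 6 of the second.

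The levels of variable and joining segments named the receptor expressed in these libraries, set here beside TRAC and TRBC1. TRBV12-3 held 93.3% to 95.6% of all TPM of beta variable segments in a library, TRAV8-4 held 78.2% to 91.2% of that of alpha variable segments and TRAJ3 held 94.0% to 97.8% of that of alpha joining segments. TRBJ1-2 was the highest beta joining segment, with 44.5% to 63.2%. These are the segments of the receptor for which Jurkat is known. Joining segments are short, so their TPM is the least certain, and TRBV12-3 has a near copy, TRBV12-4. The joining segments are shown as annotated, from the same transcripts, and the joins made in this clone are not in the data used here.

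TRAJ3: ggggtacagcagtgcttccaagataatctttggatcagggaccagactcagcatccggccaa
TRBJ1-2: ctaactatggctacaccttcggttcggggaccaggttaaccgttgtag

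Levels of the variable and constant regions of one chain stayed close to each other. The ratio of TRBV12-3 to TRBC1 ran from 0.679 to 1.11 over the 12 libraries, with a median of 1.01, and the lowest value was that of Dox- library 2. The ratio of TRAV8-4 to TRAC ran from 0.868 to 1.37, with a median of 1.15. Joining segments ranged more widely, from 0.719 to 2.23 for TRAJ3 to TRAC and from 0.892 to 2.09 for TRBJ1-2 to TRBC1. The alpha chain was much lower than the beta chain throughout: TRBC1 was 5.14 to 9.72 times TRAC, with a median of 7.02. These pairs were picked after their values had been seen.

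**Figure D1:**
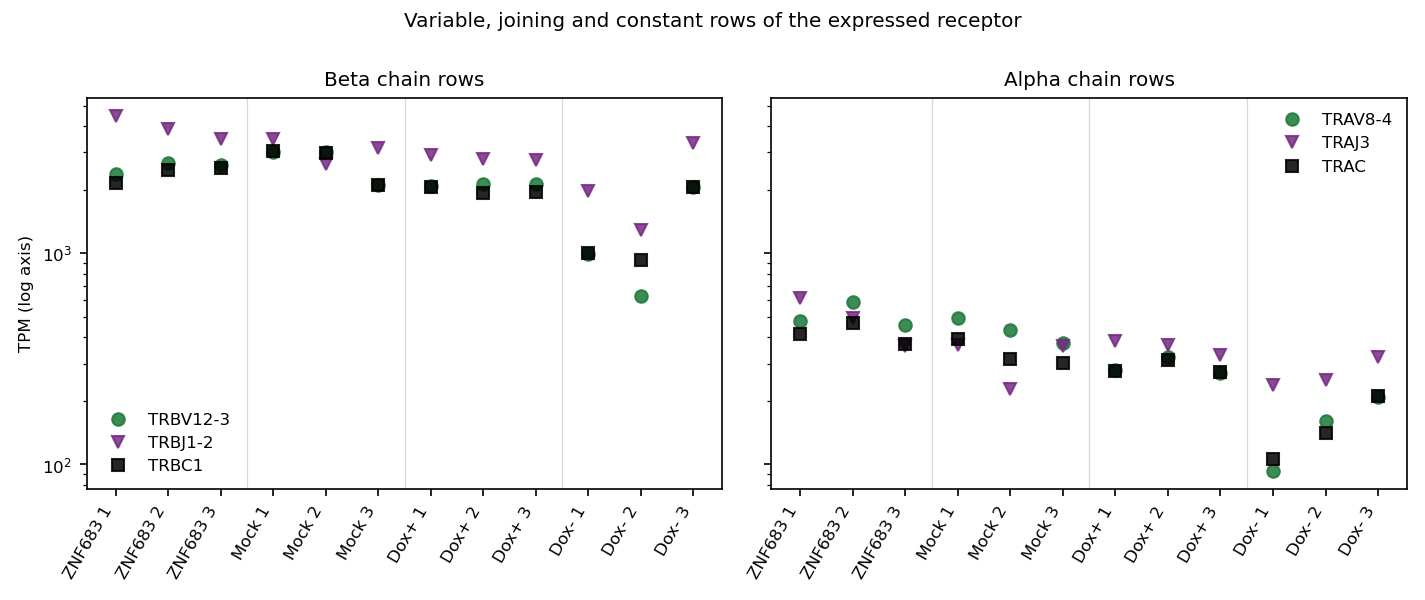
TPM on a log axis (vertical) of the variable, joining and constant genes of the expressed beta chain (left) and alpha chain (right) in each of the 12 libraries (horizontal), one point per gene and library. Variable and constant points lie close to each other, the beta points lie above the alpha points, and Dox- libraries 1 and 2 are the lowest for TRBC1.

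In the ZNF683 libraries, no receptor chain was called different from Mock, and TRAT1 had the largest change. TRAT1, an adaptor that binds the receptor complex and is reported to aid its stability at the surface, was at 106, 129.6 and 99.5 TPM in ZNF683, against 50.6, 61.8 and 83.6 TPM in Mock. All 3 ZNF683 values lay above all 3 Mock values. Its log2 change was 0.78 ± 0.19 (SE, 3 libraries each), with an unadjusted limma p of 0.003 and an adjusted p of 0.277. Of the 8 genes, 0 were called at an adjusted limma p under 0.05, where 0.0301% of the 16588 genes tested were called (0.0181% as higher). By unadjusted p under 0.05 there was 1, TRAT1, where 13% of all genes passed (6.55% as higher). TRAT1 was also the only one of the 8 whose groups did not overlap, where 8.71% of all genes did so as higher and 8.51% as lower. In a bulk library, fewer cells of a type and less RNA per cell cannot be told apart.

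TRAC, the alpha constant region, was at 416, 469 and 370.4 TPM in ZNF683, against 394, 315 and 304 TPM in Mock. Mock library 1 lay inside the ZNF683 range. The log2 change was 0.31 ± 0.14, with an adjusted limma p of 0.394. The beta constant regions had values on both sides of zero: TRBC1 was at 2142, 2468 and 2526 TPM in ZNF683, against 3045, 2982 and 2100.4 TPM in Mock, with a log2 change of -0.17 ± 0.17. Mock held both the highest and the lowest TRBC1 values of that table. TRBC2 was at 343, 378 and 360.0 TPM in ZNF683, against 364, 336 and 309 TPM in Mock, with a log2 change of 0.10 ± 0.11.

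Among the CD3 chains, CD3D, the delta chain, was at 939, 1017 and 1332 TPM in ZNF683, against 1323, 1130.3 and 1009 TPM in Mock. CD3G, the gamma chain, was at 685, 727 and 594 TPM in ZNF683, against 625, 1061 and 732 TPM in Mock, where library 2 was the highest of the 6. CD3E, the epsilon chain that pairs with both others, was at 499.5, 541 and 463 TPM in ZNF683, against 488, 504 and 436 TPM in Mock. All 3 genes overlapped between groups. Their log2 changes were -0.08 ± 0.17 for CD3D, -0.24 ± 0.20 for CD3G and 0.07 ± 0.11 for CD3E. The sign for CD3D turned to a log2 change of 0.02 when ZNF683 library 1 or Mock library 1 was left out. CD247, whose product is the zeta chain, was at 118, 135 and 107 TPM in ZNF683, against 105, 113 and 102 TPM in Mock, with a log2 change of 0.16 ± 0.11.

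Over the 8 genes the median log2 change was 0.09, beside 0.03 over all genes tested, and 5 of the 8 were above 0. Scaling by median of ratios, which sets a typical gene equal between libraries, gave a median of 0.04 for the 8, beside -0.01 for all genes, and left TRAT1 at 0.73 ± 0.16 with an adjusted limma p of 0.229. Its groups still did not overlap, as in 8.64% of all genes on that scale (higher). Leaving out a library at a time kept the log2 change of TRAT1 between 0.62 and 0.97, with adjusted p between 0.0742 and 0.744.

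A heat shock gene separated the same libraries. HSPA6, a stress-induced chaperone, was at 0.515, 0.399 and 0.618 TPM in ZNF683, against 6.85, 5.88 and 4.06 TPM in Mock, a log2 change of -2.11 ± 0.18 that was called (limma adjusted p = 0.0105, and 0.0340 after scaling). It was 1 of 6 stress genes tested there and 1 of the 5 genes called in the whole table. HSPA1B, another heat shock gene, averaged 3.35 ± 0.523 TPM in ZNF683 and 5.23 ± 0.668 TPM in Mock (SD, 3 libraries each), lower without overlap but not called, while PPP1R15A, a gene of the stress response, averaged 30.1 ± 3.58 TPM in ZNF683 and 23.0 ± 1.5 TPM in Mock, higher without overlap and not called. The part of this difference in the receptor values was not tested.

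In Dox+ libraries all 8 chains had higher means than in Dox-, by more than a typical gene, but the size of the difference depended on which Dox- libraries were kept, and none of the 8 was called. The median log2 change of the 8 genes was 0.89, beside 0.32 over all 15148 genes tested, and each of the 8 was above that 0.32. By adjusted limma p, 0 of the 8 were called, where 0.396% of all genes were called (0.125% as higher). By unadjusted p under 0.05, 4 were past it (TRAT1, CD3G, CD3D and TRAC), all higher, where 6.34% of all genes were (4.69% as higher). In 4 genes, TRAC, CD3D, CD3E and CD247, every Dox+ value lay above every Dox- value, where 7.91% of all genes did.

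TRAC was at 278, 311 and 273 TPM in Dox+, against 107, 141 and 212 TPM in Dox-. CD3D was at 1206, 1223 and 1233 TPM in Dox+, against 447, 517 and 953 TPM in Dox-. Both genes separated the groups, and in both Dox- library 3 came nearest to Dox+. The log2 change was 0.96 ± 0.43 for TRAC and 1.01 ± 0.42 for CD3D, with adjusted limma p of 0.724 and 0.658.

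CD3E was at 442, 414 and 411 TPM in Dox+, against 206, 218 and 386 TPM in Dox-. CD247 was at 91.9, 85.3 and 86.6 TPM in Dox+, against 43.0, 40.9 and 83.9 TPM in Dox-. Neither gene overlapped between groups, but Dox- library 3 lay just under the lowest Dox+ value in both. Their log2 changes were 0.70 ± 0.43 for CD3E and 0.72 ± 0.43 for CD247.

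The beta constant regions and CD3G overlapped. TRBC1 was at 2059.5, 1924 and 1941 TPM in Dox+, against 1008, 925 and 2056 TPM in Dox-, and TRBC2 was at 249.8, 239 and 263 TPM in Dox+, against 111, 95.7 and 268 TPM in Dox-. Dox- library 3 was inside or above the Dox+ range for both. CD3G was at 724, 508 and 500.4 TPM in Dox+, against 298, 101 and 518 TPM in Dox-, with a log2 change of 1.18 ± 0.43 and an adjusted limma p of 0.456. The CD3G value of Dox- library 2 was the lowest of the 12 libraries.

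TRAT1 was at 79.2, 96.7 and 104 TPM in Dox+, against 33.4, 12.7 and 80.3 TPM in Dox-. Dox- library 2 was far below the other libraries, and Dox- library 3 was just above the lowest Dox+ value. The log2 change of 1.47 ± 0.43 was the largest of the 8, with an adjusted limma p of 0.115. TRAT1 was thus the gene of the 8 with the largest log2 change in each comparison.

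**Figure D2:**
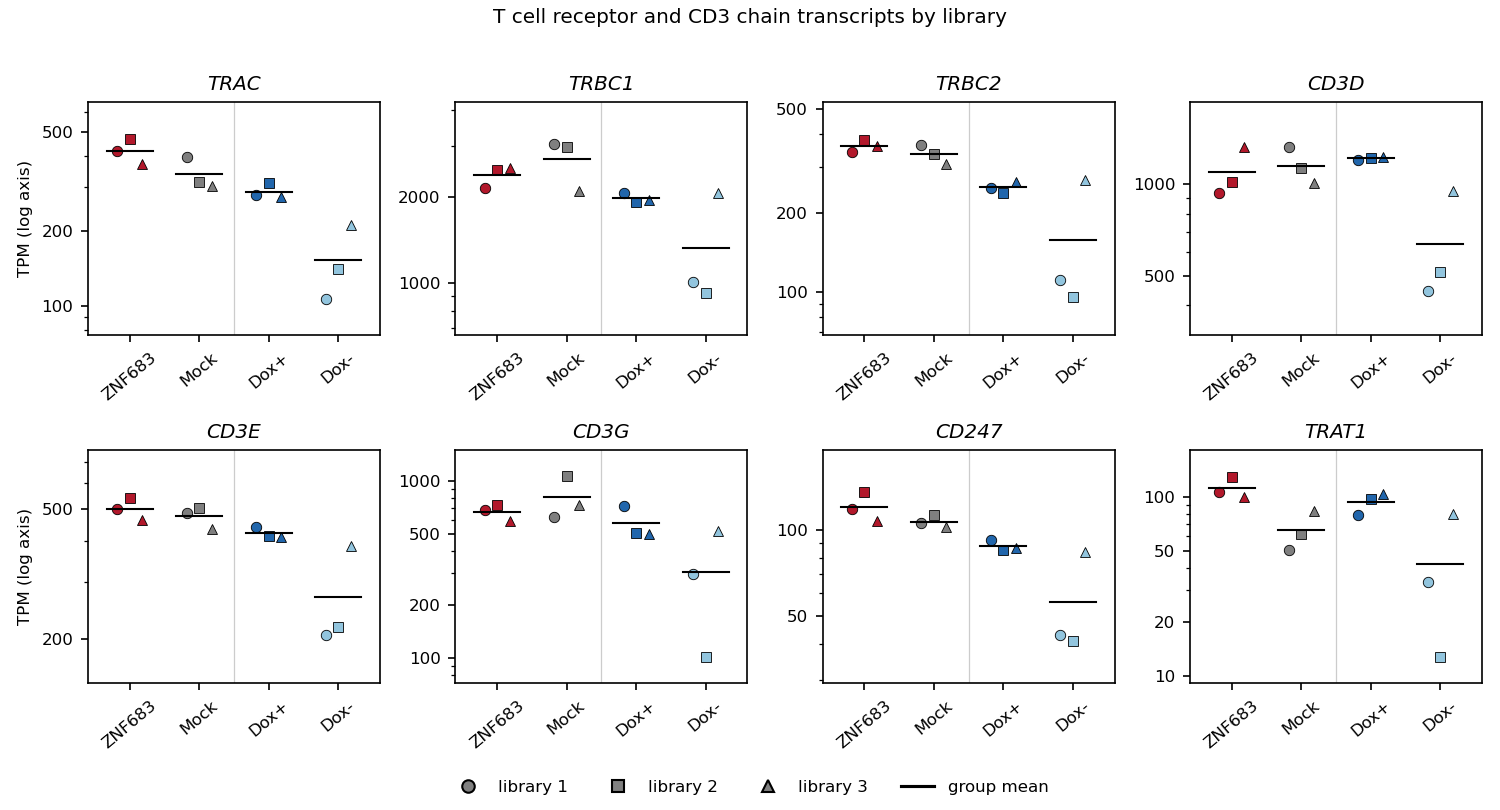
TPM on a log axis (vertical, a scale for each panel) of the 8 genes in the 4 groups (horizontal), with a point per library and a bar at the group mean. Dox- libraries 1 and 2 lie below Dox- library 3 in every panel, and the TRAT1 values of ZNF683 lie above those of Mock.

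The 3 Dox- libraries were not alike. The sum of the 8 genes was 4801 to 5130 TPM in the Dox+ libraries, against 2253, 2051 and 4556 TPM in Dox- libraries 1, 2 and 3. In Dox- library 1, a single RNA, AL135790.1, took 50.7% of all TPM, and it took 12.8% of Dox- library 2 and 6.65% to 10.5% of each of the remaining 4. TPM adds up to a fixed total, so such a share lowers every other value in that library. In Dox- library 2, the heat shock gene HSPA6 was at 637 TPM, and it was at 0.351 TPM or below in the other 5. Of 7 stress genes, 5 were called lower in Dox+ than in Dox- (HSPA6, HSPA1A, HSPA1B, ADM and AK4), and 0 were called after scaling. Of all 15148 genes tested, 60 were called (0.396%), 41 of them as lower, and 0 were called after scaling. ADM and AK4 did not overlap between groups, while the 3 heat shock genes overlapped and were high in Dox- library 2 alone. The part of these libraries' differences in the receptor values was tested only by scaling and by leaving libraries out.

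Scaling by median of ratios put the median log2 change of all genes at -0.02 in place of 0.32, and that of the 8 genes at 0.50, with 8 of 8 above 0. After scaling, TRAC was at 241, 271 and 237 in Dox+, against 183, 145 and 176 in Dox-, and CD3D at 1048, 1064 and 1074 in Dox+, against 769, 533 and 795 in Dox-. Both genes were higher in each Dox+ library than in any Dox- library. Their scaled log2 changes were 0.57 ± 0.14 and 0.62 ± 0.18, with unadjusted limma p of 0.00436 and 0.0100 and an adjusted p of 0.755 for both.

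The other 6 genes gave a different picture after scaling, since Dox- libraries 1 and 3 came close to Dox+ and library 2 stayed low. TRBC1 was at 1789, 1673 and 1690.3 in Dox+, against 1733, 955 and 1715 in Dox-. CD3E was at 384, 360.2 and 358 in Dox+, against 354, 225 and 322 in Dox-. TRAT1 was at 68.8, 84.1 and 90.5 in Dox+, against 57.5, 13.1 and 67.0 in Dox-, so its groups no longer overlapped. After scaling, 5 of the 8 genes had every Dox+ value above every Dox- value, where 5.53% of all genes did. In all 8 genes the largest deviation from the table mean among the 12 libraries was that of Dox- library 2, from -0.49 (log2) in TRAC to -1.98 in TRAT1.

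The calls turned on single Dox- libraries. Without Dox- library 3, 7 of the 8 genes were called, all but CD3G, with adjusted limma p from 0.0342 to 0.0392, and so were 2788 genes of the whole table. The median log2 change of the 8 was then 1.25, beside 0.495 over all genes. After scaling, 0 of the 8 and 0 of all genes were called with or without that library. Without it the smallest adjusted limma p of the 8 was 0.401 (0.755 with it). By unadjusted limma p under 0.05 there were 3 of the 8 without it, beside 1730 of the 15030 genes tested. With it there were 2 of the 8, beside 469 of 15069 genes. Without Dox- library 2, after scaling, the median of the 8 was 0.11, with TRAC at 0.48, CD3D at 0.45 and TRBC1 at -0.00053. Leaving out both Dox- libraries 1 and 2 leaves 1 Dox- library, which is assumed to vary like the other group. The median of the 8 as deposited was then 0.13, beside -0.07 over all genes, and 6 of the 8 genes were above 0.

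**Figure D3:**
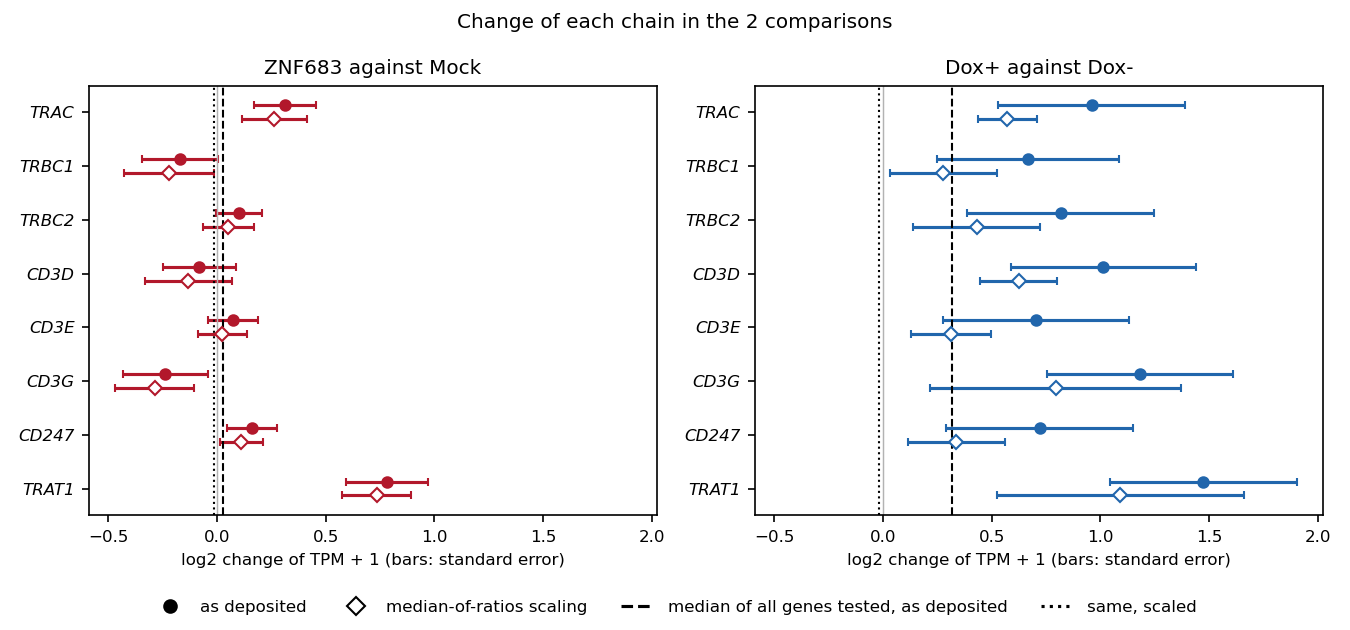
Log2 change of TPM + 1 with its standard error (horizontal) of each gene (vertical) for ZNF683 against Mock (left) and Dox+ against Dox- (right), as deposited (filled) and after median-of-ratios scaling (open), with lines at the median of all genes tested. TRAT1 is farthest to the right in both panels, and scaling moves the Dox+ changes towards 0 by about the shift of the typical gene.

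The difference between both effects was tested as a contrast over all 12 libraries. The change was lower for ZNF683 against Mock than for Dox+ against Dox- in 8 of 8 genes, beside a median difference of -0.28 over the 14468 genes tested. None of the 8 was called, with an adjusted limma p of 0.876 for each, where 0.0138% of all genes were called. CD3D (-1.10 ± 0.41) and CD3G (-1.42 ± 0.58) had an unadjusted p under 0.05, where 3.75% of all genes did. Without Dox- library 3, 7 of the 8 were called, but the share of all genes called in that contrast was not computed. Leaving out that library also had 2788 of 15127 genes called for Dox+ against Dox- alone, so this count is no result about the 8.

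Ratios of chains within a library do not move with its total, and 7 of them were compared in each table. A two-sided exact permutation test of 3 libraries against 3 gives no p below 0.1 and so cannot reach 0.05. The 4 comparisons of ratios at 0.1 had a Benjamini-Hochberg p of 0.35 over all 14.

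The balance of alpha to beta transcripts was higher in each ZNF683 library than in any Mock library. The ratio of TRAC to TRBC1 plus TRBC2 was 0.168, 0.165 and 0.128 in ZNF683, against 0.115, 0.0950 and 0.126 in Mock, without overlap (exact permutation p = 0.1). The nearest libraries, ZNF683 library 3 and Mock library 3, were almost equal. TRAT1 relative to the mean of CD3D, CD3E and CD3G was 0.149, 0.170 and 0.125 in ZNF683, against 0.0623, 0.0688 and 0.115 in Mock, also without overlap (exact permutation p = 0.1). In Dox+ the same pair of ratios overlapped Dox-. TRAC to TRBC1 plus TRBC2 averaged 0.129 ± 0.0128 in Dox+ and 0.108 ± 0.0258 in Dox- (SD, 3 libraries each).

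In the doxycycline table the ratios that separated the groups were those among the CD3 and zeta transcripts. CD3D relative to CD3E was 2.73, 2.95 and 3.0 in Dox+, against 2.17, 2.37 and 2.47 in Dox-. CD247 relative to the mean of CD3D, CD3E and CD3G was 0.116, 0.119 and 0.121 in Dox+, against 0.136, 0.147 and 0.136 in Dox-. Neither ratio overlapped, each had an exact permutation p of 0.1, and in both all 3 Dox- libraries lay on one side, libraries 1 and 3 included. Between ZNF683 and Mock the ratio of CD3D to CD3E overlapped, with means of 2.21 ± 0.576 in ZNF683 and 2.42 ± 0.251 in Mock (SD, 3 libraries each). CD3G relative to CD3E lay between 1.2 and 1.64 in 5 libraries of the doxycycline table and at 0.462 in Dox- library 2, the only one with less CD3G than CD3E.

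**Figure D4:**
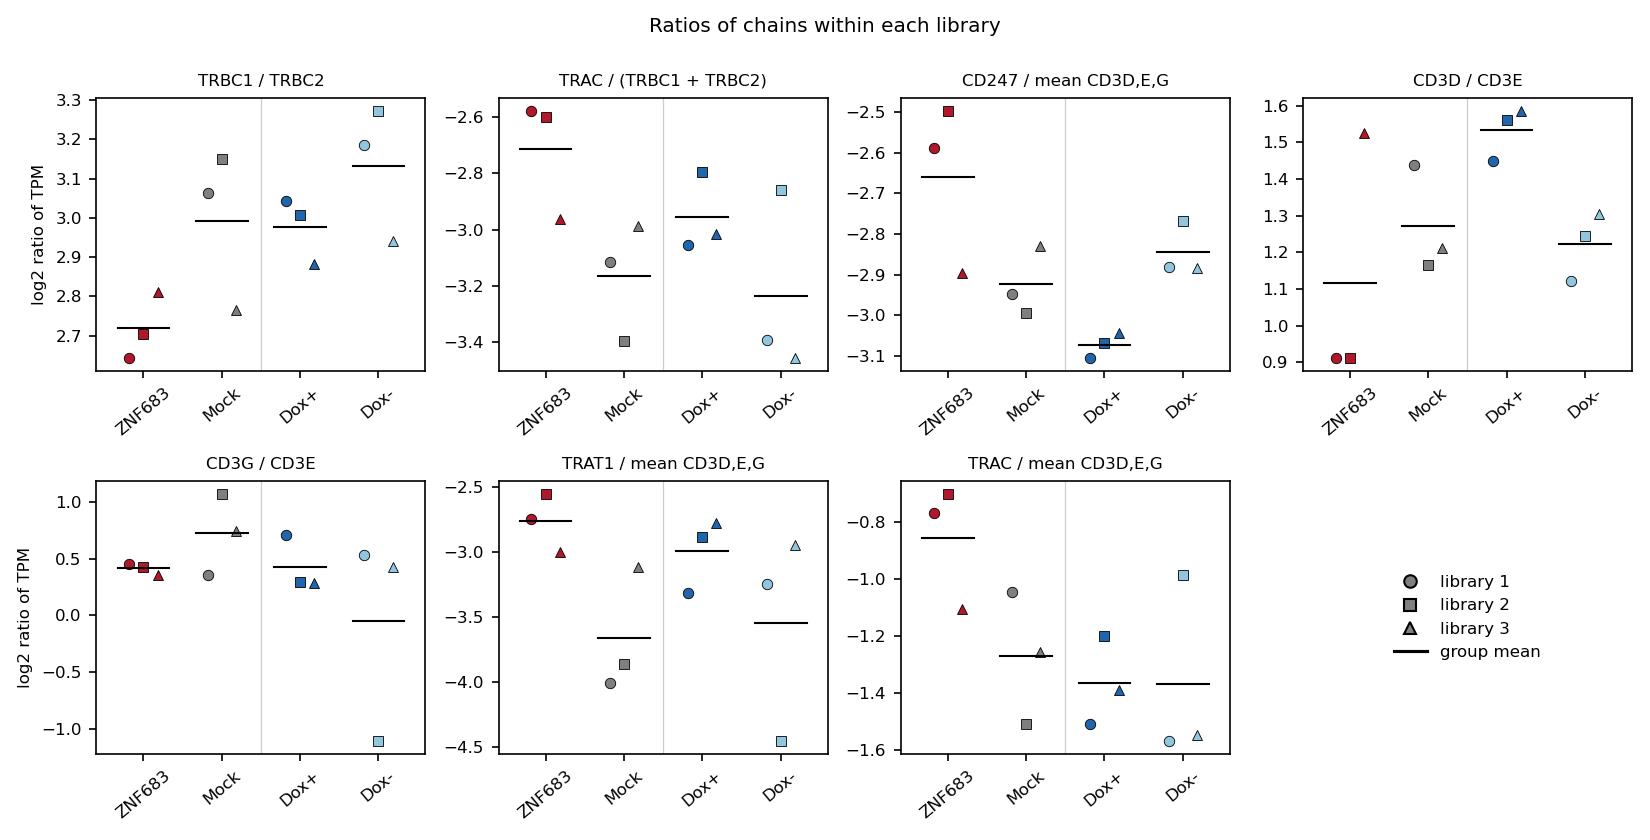
Log2 of 7 ratios of TPM within a library (vertical, a scale for each panel) in the 4 groups (horizontal), with a point per library and a bar at the group mean. TRAC to the summed beta constant genes and TRAT1 to CD3 separate ZNF683 from Mock, CD3D to CD3E and CD247 to CD3 separate Dox+ from Dox-, and the low CD3G point is Dox- library 2.

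The segments of the expressed receptor gave values for the same chains from other genes. TRAV8-4 was at 280, 321 and 272 TPM in Dox+, against 92.6, 160.1 and 208 TPM in Dox-, without overlap and with a log2 change of 0.99 ± 0.43 (limma adjusted p = 0.714). After scaling its log2 change was 0.60 ± 0.12, close to the 0.57 of TRAC. The joining segments had smaller scaled log2 changes, 0.04 ± 0.20 for TRAJ3 and 0.08 ± 0.34 for TRBJ1-2, beside 0.28 for TRBC1. TRBV12-3 was at 2089, 2135 and 2123 TPM in Dox+, against 990.1, 628 and 2062 TPM in Dox-. Here Dox- library 3 was just below Dox+, as it was within the Dox+ range for TRBC1.

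For ZNF683 against Mock, TRAV8-4 had a log2 change of 0.22 ± 0.15 and TRBV12-3 of -0.07 ± 0.17, the same signs as TRAC and TRBC1. The joining segments TRAJ3 and TRBJ1-2 had log2 changes of 0.62 ± 0.24 and 0.35 ± 0.16. The sign for TRBJ1-2 was thus opposite to that of TRBC1. Of 45 segments tested there, 0 were called and 9 had an unadjusted limma p under 0.05, beside 13% of all genes. Beta joining segments of the TRBJ2 cluster, which lie between TRBC1 and TRBC2, held 5 of those 9, all higher, and 7 of the 8 tested in that cluster had a change above 0. TRBJ2-3 was at 199, 171 and 164 TPM in ZNF683, against 107, 81.8 and 117 TPM in Mock, with an adjusted limma p of 0.222. For Dox+ against Dox-, 39 of 44 segments had a change above 0 (34 after scaling), with a median of 0.59 beside 0.32 over all genes, and 14 had an unadjusted p under 0.05, beside 6.34% of all genes. Of the 44, 1 was called, beside 0.396% of all genes. This was TRAJ37, a short joining segment, at 2.96, 0.75 and 6.71 TPM in Dox+ and listed at 0 in the 3 Dox- libraries. Its limma adjusted p was 7.12e-04, and 0.755 after scaling. TRAJ37 passed the filter of a mean of 1 TPM only through its Dox+ values, so its call is no evidence of a change.

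Other receptor chains were low. PTCRA, the surrogate alpha chain of immature thymocytes, was at 5.44, 6.14 and 6.59 TPM in ZNF683, against 7.54, 10.0 and 8.27 TPM in Mock, without overlap. Its log2 change was -0.44 ± 0.13, with an adjusted limma p of 0.308. TRGC2, a gamma chain constant region, was at 9.98, 8.19 and 6.91 TPM in ZNF683, against 4.07, 6.81 and 6.64 TPM in Mock. In the doxycycline table both had higher means in Dox+, with overlap: PTCRA was at 6.37, 3.91 and 6.01 TPM in Dox+, against 2.15, 1.52 and 5.66 TPM in Dox-, and TRGC2 at 8.37, 7.49 and 8.82 TPM in Dox+, against 4.01, 1.4 and 8.59 TPM in Dox-. Their log2 changes there were 0.75 ± 0.41 and 0.92 ± 0.42, not called, so the sign for PTCRA was opposite in the tables.

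The 31 genes listed for proximal signalling include both genes that carry the signal from the CD3 tails and genes that restrain it. A count of changes above 0 thus gives no direction of signalling. Of the 31, 30 passed the filter in each table and 0 were called in either. For ZNF683 against Mock, 25 of 30 had a change above 0 (19 after scaling), with a median of 0.11 beside 0.03 over all genes. By unadjusted p under 0.05 there were 5, all higher, beside 6.55% of all genes: PTPRC, GRAP2, CD6, LCP2 and CD2. PTPRC, the CD45 phosphatase that keeps LCK active, was at 323, 315 and 279 TPM in ZNF683, against 223, 202 and 262 TPM in Mock. GRAP2, the GADS adaptor that joins LAT to SLP-76, was at 201, 221 and 172 TPM in ZNF683, against 136, 151 and 163 TPM in Mock. Neither gene overlapped, as in 8.71% of all genes, and the adjusted limma p was 0.304 for PTPRC and 0.322 for GRAP2. LCK was at 1086, 1175 and 919 TPM in ZNF683, against 939, 1069 and 937 TPM in Mock, with overlap.

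For Dox+ against Dox-, 28 of the 30 had a change above 0, with a median of 0.53 beside 0.32 over all genes, and 6 had an unadjusted p under 0.05, all higher, beside 4.69% of all genes. After scaling, 21 of the 30 were above 0, with a median of 0.16. GRAP2 led with 1.37 (limma adjusted p = 0.199), followed by CD2 with 1.28 and LCP2, which encodes SLP-76, with 1.12. GRAP2 was at 146, 166 and 176 TPM in Dox+, against 58.7, 26.5 and 152 TPM in Dox-, low in the same library as TRAT1.

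Genes for assembly and turnover of the receptor, 12 in all, had 0 calls in each comparison. For ZNF683 against Mock their median log2 change was 0.22, beside 0.03 over all genes, with 9 of 12 above 0. For Dox+ against Dox- it was 0.309, beside 0.316 over all genes, with 6 of 12 above that 0.316. After scaling it was 0.17 for ZNF683 against Mock and -0.08 for Dox+ against Dox-. SLA and SLA2, adaptors that direct CBL to the receptor, were among the 3 of the list with the smallest p in both comparisons. SLA was at 166, 163 and 144 TPM in ZNF683, against 129, 116 and 135 TPM in Mock, and at 123, 129 and 126 TPM in Dox+, against 52.1, 21.0 and 114 TPM in Dox-. The groups did not overlap in either comparison, as in 8.71% and 7.91% of all genes, and the list held 2 such higher genes in each. The adjusted limma p was 0.340 and 0.268.

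Of 17 factors and enzymes that act on the receptor loci, 0 were called in each comparison. For ZNF683 against Mock, 10 of the 17 had a change above 0, with a median of 0.09 beside 0.03 over all genes. By unadjusted limma p under 0.05, 2 were higher and 3 lower, where 13% of all genes passed (6.55% as higher). The groups did not overlap in 5 as higher and 3 as lower, beside 8.71% and 8.51% of all genes. The 3 with the smallest p were all lower. DNTT, the polymerase that adds bases at segment joins, was at 213, 208 and 197 TPM in ZNF683, against 425, 491 and 317 TPM in Mock. RAG1, the recombinase, was at 1.54, 1.94 and 1.63 TPM in ZNF683, against 3.5, 8.0 and 5.18 TPM in Mock. Neither gene overlapped, as in 8.51% of all genes, and the log2 changes were -0.97 ± 0.16 and -1.22 ± 0.24, with adjusted limma p of 0.222 and 0.225. RUNX1, a factor of receptor enhancers, averaged 36.4 ± 1.78 TPM in ZNF683 and 50.2 ± 4.39 TPM in Mock (log2 change -0.45 ± 0.10, limma adjusted p = 0.271). In Dox+ DNTT was at 288, 306 and 252 TPM, inside the Dox- range of 122 to 445 TPM. Of the 17, 16 had a change above 0 for Dox+ against Dox- (10 after scaling), with a median of 0.43 beside 0.32 over all genes. By unadjusted limma p under 0.05 there were 3, all higher, beside 4.69% of all genes. After scaling the median was 0.06 and 1 gene was past it, beside 469 of 15069 genes in either direction. IKZF1, the lymphoid factor Ikaros, was at 129.6, 130.7 and 129 TPM in Dox+, against 57.5, 29.1 and 122 TPM in Dox-. TAL1, a factor active in T cell leukaemia, was at 61.8, 67.8 and 62.3 TPM in Dox+, against 25.2, 20.7 and 55.3 TPM in Dox-. RAG2, the partner of RAG1, was at 16.6, 19.4 and 18.7 TPM in Dox+, against 10.9, 2.78 and 25.8 TPM in Dox-. IKZF1 and TAL1 did not overlap, as in 7.91% of all genes (higher), while RAG2 did, and the lowest value of each was that of Dox- library 2. Their log2 changes were 1.12, 1.03 and 0.85, with adjusted limma p of 0.541, 0.653 and 0.737.

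The genes next to the 8 on their chromosomes had no calls in 9 tested for ZNF683 against Mock and 10 for Dox+ against Dox-. For ZNF683 against Mock the smallest p were those of DZIP3 (0.34), KMT2A (-0.41) and POU2F1 (-0.25), given as log2 changes. The median log2 change of these neighbours for Dox+ against Dox- was 0.22, beside 0.32 for all genes and 0.89 for the 8. DAD1, which lies 12750 bases from TRAC, was at 331, 369.5 and 411 TPM in Dox+, against 160, 276 and 333 TPM in Dox-, overlapping narrowly.

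**Figure D5:**
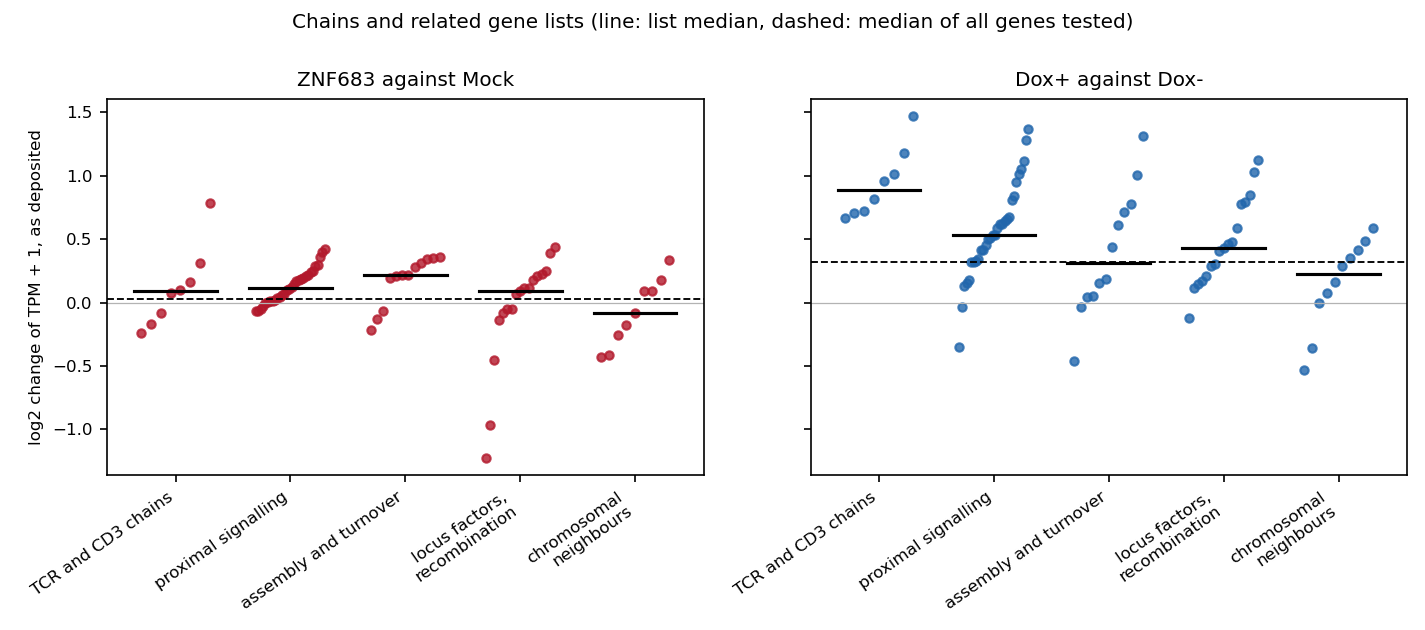
Log2 change of TPM + 1 as deposited (vertical) of each gene tested in the receptor and CD3 group and in 4 related lists (horizontal), for ZNF683 against Mock (left) and Dox+ against Dox- (right), with a bar at each list's median and a dashed line at the median of all genes tested. In the right panel the receptor and CD3 group has the highest median of the lists drawn, 0.89, and all its points lie above the dashed line. The T lineage markers and the other receptor chains are not drawn.

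The 6 T lineage markers CD2, CD5, CD7, CD28, CD4 and PTPRC summed to 840 to 949 TPM in ZNF683, against 726 to 751 TPM in Mock, and to 674 to 797 TPM in Dox+, against 270 to 597 TPM in Dox-. Their lowest sums fell in the same Dox- libraries as those of the 8 genes, and their part in the result was not tested. The median log2 change of these 6 markers for Dox+ against Dox- was 0.72, beside 0.32 over all genes and 0.89 for the 8. After scaling it was 0.35, beside 0.50 for the 8. All 6 markers had a change above 0 as deposited, so higher means in Dox+ were not particular to the 8. Of the B cell markers given here, CD79A averaged 43.9 ± 8.7 TPM in ZNF683 and 46.1 ± 9.31 TPM in Mock, and 28.5 ± 2.26 TPM in Dox+ and 14.9 ± 8.1 TPM in Dox- (SD, 3 libraries each), while MS4A1 reached 0.268 TPM at most. CD79A did not overlap between Dox+ and Dox- (log2 change 1.00 ± 0.43, limma adjusted p = 0.691). PAX5, a B cell factor, averaged 2.57 ± 0.0259 TPM in ZNF683 and 3.61 ± 0.483 TPM in Mock, lower without overlap (log2 change -0.36 ± 0.13, limma adjusted p = 0.340). No myeloid marker exceeded 1.11 TPM and no natural killer marker 1.88 TPM. Of the stromal, epithelial and endothelial markers, PECAM1 reached 108 TPM, EPCAM stayed at or below 0.077 TPM and COL1A1 was at 17.0 TPM in Dox- library 2. PECAM1 was at 71.9, 73.9 and 76.1 TPM in Dox+, against 36.4, 11.5 and 81.3 TPM in Dox-, with overlap, and its log2 change of 1.15 ± 0.43 was above those of 6 of the 8 receptor genes (limma adjusted p = 0.504). COL1A1 had a log2 change of -0.94 ± 0.40 (limma adjusted p = 0.661). Neither was called, and the part of these markers in the receptor values was not tested.

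By pattern over the 12 libraries, the genes nearest to the mean of CD3D, CD3E, CD3G and CD247 were LINC01366, IFNGR2, PEX7, TTLL1 and SFR1. Likeness was the root mean square difference of scaled log2 values centred within each table, 0.0459 for LINC01366 to 0.0782 for SFR1, among 7668 genes that averaged 10 TPM or more in both tables. The genes nearest to TRAT1 were SERPINB8, GRAP2, PHF23, NCOA5 and CHMP6, at 0.171 to 0.220. IFNGR2 was at 69.5, 64.4 and 68.9 TPM in Dox+, against 33.8, 26.2 and 61.7 TPM in Dox-, and SERPINB8 at 28.8, 33.4 and 37.9 TPM in Dox+, against 11.9, 4.53 and 31 TPM in Dox-. In both genes Dox- library 2 was the lowest of its table, as it was in TRBC1, TRBC2, CD3G, CD247 and TRAT1.

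Promoters are shown for the gene of the 8 with the largest change in both comparisons and for a CD3 chain that kept its separation after scaling. RefSeq windows on GRCh38.p14, 250 bases before to 50 after the start used for each window, were found for 3 of the 8 genes, CD3D, CD247 and TRAT1. These windows use starts that differ from those of the GENCODE v29 genes given above. They were searched on both strands for an ETS motif spelled AGGAAG, a RUNX motif spelled TGTGGT and a GATA motif spelled AGATAA, with matches in capitals. A TCF/LEF motif spelled CTTTGAN, an E-box spelled CAGNTG and a Blimp-1 motif spelled AGNGAAAG were searched likewise. TRAT1 had 1 ETS, 1 RUNX and 2 adjoining GATA matches, CD3D had 2 overlapping ETS and 1 RUNX, and CD247 had 2 ETS, 1 TCF/LEF and 1 E-box. None of the 3 windows held the Blimp-1 letters. Of 35116 promoters, 33.6% held the ETS letters, 13.1% RUNX, 10.3% GATA, 12.8% TCF/LEF, 49.9% E-box and 7.99% Blimp-1, so these matches are a description only. TRAT1 is at chr3:108822536-108822835 on the plus strand and CD3D at chr11:118342656-118342955 on the minus strand, each written 5′ to 3′ in the direction of the gene.

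TRAT1: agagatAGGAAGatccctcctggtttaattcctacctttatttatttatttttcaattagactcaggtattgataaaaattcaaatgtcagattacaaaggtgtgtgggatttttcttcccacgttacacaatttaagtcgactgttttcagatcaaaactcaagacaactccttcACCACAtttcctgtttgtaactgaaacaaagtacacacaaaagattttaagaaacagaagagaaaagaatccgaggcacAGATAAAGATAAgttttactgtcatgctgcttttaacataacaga
CD3D: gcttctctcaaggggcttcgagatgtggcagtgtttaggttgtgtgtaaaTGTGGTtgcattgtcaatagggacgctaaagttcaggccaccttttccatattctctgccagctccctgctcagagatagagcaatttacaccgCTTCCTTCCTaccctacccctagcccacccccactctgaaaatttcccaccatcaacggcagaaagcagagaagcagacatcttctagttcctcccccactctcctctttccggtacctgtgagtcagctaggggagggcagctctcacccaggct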

How the data were processed

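The authors deposited 2 tables of TPM per gene symbol, one for the ZNF683 and Mock libraries and one for the Dox+ and Dox- libraries. Per the submitters' processing notes kallisto (0.46.0) and DESeq2 (1.22.2) were used, with no role stated, and build and transcript models are not given in the sources used here. TPM holds no read number, so depth is unknown and no counting interval was made. Groups came from sample titles and genotype labels.

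Genes averaging 1 TPM or more in a table were fitted on log2 of TPM plus a pseudocount of 1 by limma (version 3.58.1, R 4.3.3), with a trend, two-sided tests and Benjamini-Hochberg adjustment over all genes tested, at a threshold of 0.05. This scale understates changes of low genes. In the doxycycline table the prior degrees of freedom were unlimited, so all genes of a given level shared nearly 1 spread. The procedure was tested on simulated data. The 8 genes, the related lists and the alternatives were chosen with earlier results of these data known. Beside the 8, segments were named, and of each list the genes past the threshold or up to 3 with the smallest limma p, and the 5 genes most alike in pattern. LCK, DAD1 and the remaining genes of a count were named after their values were seen.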

Additional observations from a re-analysis of the deposited data

How the results depend on the processing

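Alternatives were pseudocounts of 0.1 and 5, no filter, a minimum of 5 TPM, median-of-ratios scaling, leaving out AL135790.1, robust moderation, 1 fit over 12 libraries, the replicate block and leaving out each library. For ZNF683 against Mock, 0 of the 8 genes were called in every one of them, and CD3D ran from -0.23 to 0.021 when 1 library was left out, with the sign turned at 0.021 without ZNF683 replicate 1 and without Mock replicate 1. For Dox+ against Dox-, leaving out 1 library gave 0 to 7 of the 8 called, the 7 without Dox- replicate 3. The number whose effects differ likewise ran from 0 to 7, with no share over all genes computed. Chosen after seeing the data, the set without Dox- replicates 1 and 2 gave a median of 0.13, with TRBC1 at -0.059 and TRBC2 at -0.094, and scaling without Dox- replicate 2 gave 0.11, with TRBC1 at -0.00053. The causes were not tested. Counts over all genes moved by more than 1.5 times: 0 to 49 against 5 for ZNF683, and 0 to 2788 against 60 for Dox+. Same-numbered libraries correlated at -0.21, 0.07 and -0.25 (ZNF683 and Mock) and 0.08, 0.05 and 0.36 (Dox+ and Dox-). Differently numbered libraries correlated at -0.18 to 0.31 and at -0.33 to 0.20. The numbers were not taken as pairs, though 3 libraries per group cannot exclude pairing. With the replicate block 0 of the 8 were called in each comparison, with smallest adjusted limma p of 0.387 and 0.292. Unknown depth limits what can be said of low genes.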
